A study of Mus musculus with 10 samples.

Results

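The 9 genes described here encode enzymes that make ceramides and process them further, out of 23282 entries in each library's table. They were taken by symbol and run along the pathway from serine palmitoyltransferase (Sptlc1, Sptlc2, Sptlc3) through ceramide synthases (Cers3, Cers4), a desaturase (Degs2) and a hydroxylase (Fa2h) to glucosylceramide synthase (Ugcg) and acid sphingomyelinase (Smpd1). Transcript 3′ ends were sequenced from whole skin of C57BL/6 mice aged 5 months. The 5 STAT3cKO libraries came from mice that lacked STAT3 in keratinocytes, and the 5 WT libraries from wild-type mice. The labels name neither the promoter that drove the deletion nor the sex of the mice or the phase of hair growth. They do not say either whether each library came from its own mouse, so every p-value here rests on the spread among libraries, some of which may be technical.

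Ceramides are built from serine and palmitoyl-CoA, which are joined by serine palmitoyltransferase. A ceramide synthase then attaches a fatty acid and a desaturase finishes the sphingoid base, while Fa2h hydroxylates the fatty acid. In the epidermis ceramides are stored as glucosylceramides and sphingomyelins, secreted, and cut back to ceramides that fill the space between cornified cells with water-retaining lipid layers. Sebaceous glands and hair follicles also make sphingolipids, and those with 2-hydroxy fatty acids depend on Fa2h in mouse sebaceous glands.

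Fa2h and Cers4 rose in STAT3cKO skin, 14.4-fold and 6.70-fold, and the other 7 enzymes did not pass the test. All 9 were tested. Among them 2 rose and 0 fell, where 0.529% of the 11536 genes tested rose and 0.459% fell (limma, adjusted p under 0.05), so that 0.988% were called in either direction. The groups did not overlap in the same 2 genes, against 3.42% of all genes tested, and 1.71% with STAT3cKO higher. A change above 0 was seen in 7 of the 9, and the median change was 0.95 on the log2 scale, while the median over all genes tested was −0.16 and 43.8% of them had a change above 0. The 9 enzymes were chosen with earlier results of these data known. In whole skin, a change in the number of cells of a type and a change in RNA per cell cannot be told apart.

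The deposited values are log2 of a scaled read number plus about 1, and every change given here is STAT3cKO minus WT on that scale. Stat3, the targeted gene, was at 10.25, 9.98, 10.81, 9.49 and 10.13 in STAT3cKO and 9.70, 9.08, 10.27, 9.27 and 10.29 in WT (change 0.41, limma adjusted p = 0.700). The groups overlapped; other skin cells keep the gene, and 3′ reads may lie outside the deleted stretch, so this does not check the labels. The estimated depth was 7190000 to 18400000 reads per library. STAT3cKO 2 and WT 3 had the most tested genes without a read, 2617 and 1273 of 11536, against 83 to 1097 in the other 8, and STAT3cKO 2 was the single library without Xist. Suprabasal keratinocyte markers, which check the tissue, had a summed level of 12166 to 24096 ppm in STAT3cKO and 3289 to 13274 ppm in WT. Such levels are parts per 1000000 of a library's total on the linear scale (ppm).

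**Figure D1:**
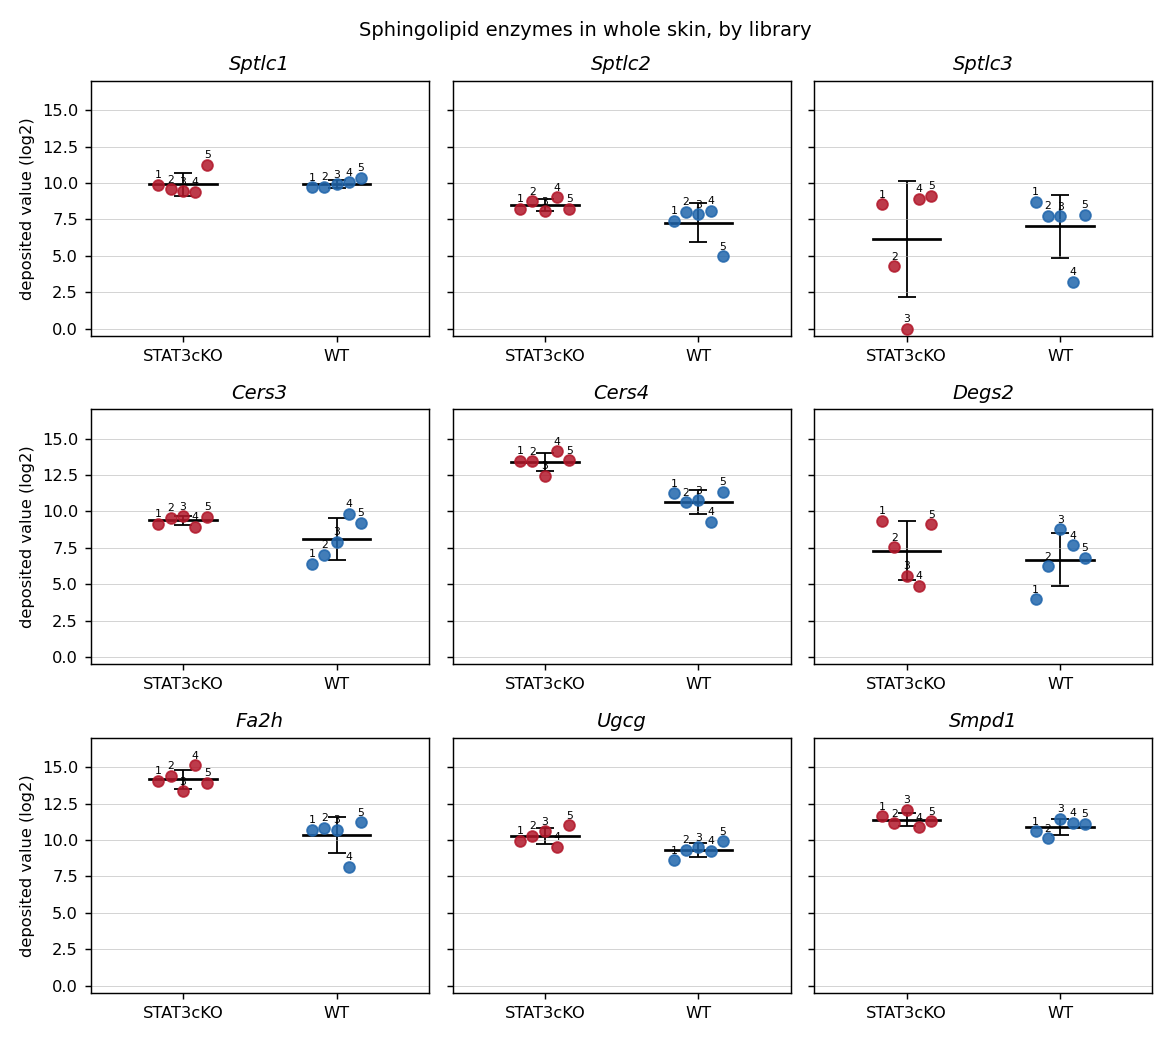
Deposited values (log2, vertical axis) of the 9 enzymes in the 5 STAT3cKO libraries (red) and the 5 WT libraries (blue), numbered by replicate, with the mean and SD in black. The groups lie apart for Cers4 and Fa2h and overlap for the other 7 enzymes.

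Serine palmitoyltransferase sets the pace of the pathway. Sptlc1 (chromosome 13, 53332748 to 53377397, minus strand of mm10), the subunit that every form of the enzyme needs, had values of 9.89, 9.57, 9.42, 9.39 and 11.26 in STAT3cKO 1 to 5 and 9.69, 9.75, 9.91, 10.05 and 10.36 in WT 1 to 5. The groups overlapped, and STAT3cKO 5 stood above the other 9 libraries. The change was −0.04 (95% interval −0.84 to 0.75, SE 0.38, limma adjusted p = 0.976), and without STAT3cKO 5 it was −0.38.

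Sptlc2 (chromosome 12, 87305058 to 87388355, minus strand), a catalytic subunit, had values of 8.25, 8.75, 8.07, 9.04 and 8.25 in STAT3cKO and 7.42, 8.04, 7.85, 8.11 and 4.96 in WT. All but 1 of the STAT3cKO libraries lay above all WT libraries, and WT 5 was far below the rest with about 20 reads. The change was 1.19 (95% interval −0.36 to 2.75, SE 0.74, limma adjusted p = 0.568). Leaving out WT 5 brought it to 0.62 (limma adjusted p = 0.746).

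Sptlc3 (chromosome 2, 139493913 to 139637674, plus strand) is the alternative catalytic subunit, which makes sphingoid bases of other chain lengths. Its values were 8.55, 4.27, 0.01, 8.92 and 9.11 in STAT3cKO and 8.70, 7.75, 7.71, 3.23 and 7.82 in WT. Both groups held low libraries: STAT3cKO 3 had no read, STAT3cKO 2 about 13 and WT 4 about 7. The change of −0.87 (95% interval −4.54 to 2.80, SE 1.75, limma adjusted p = 0.874) has an interval that holds both a fall and a rise of several fold, and without STAT3cKO 3 it was 0.67. The difference between Sptlc3 and Sptlc2 within a library averaged −2.30 ± 3.85 in STAT3cKO and −0.24 ± 2.89 in WT (SD, n = 5 each, exact 2-sided permutation p = 0.389, or 0.583 adjusted over the 3 pairs of enzymes compared in this way). The resulting −2.06 was −0.62 without STAT3cKO 3, −0.83 with a pseudocount of 64 and −0.12 among the 4 deeper libraries.

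Ceramide synthases differ in the fatty acids they attach. Cers4 (chromosome 8, 4493026 to 4531680, plus strand) prefers long saturated acyl chains, and mice without it lose hair. Its values were 13.48, 13.44, 12.45, 14.14 and 13.50 in STAT3cKO and 11.25, 10.63, 10.77, 9.30 and 11.34 in WT. Every STAT3cKO value exceeded every WT value, with a gap of 1.11 between the lowest STAT3cKO and the highest WT library. On the linear scale its share was 1119 ± 429 ppm in STAT3cKO and 161 ± 73.1 ppm in WT (SD, n = 5 each). The rise was 2.74 (95% interval 1.95 to 3.54, SE 0.38, limma adjusted p = 0.000684), or 6.70-fold with an interval of 3.86 to 11.7.

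Cers3 (chromosome 7, 66743504 to 66823691, plus strand) makes the ceramides with ultra-long acyl chains on which the epidermal water barrier depends. It had values of 9.15, 9.55, 9.67, 8.96 and 9.62 in STAT3cKO and 6.42, 7.02, 7.93, 9.86 and 9.21 in WT. The STAT3cKO libraries lay close together, while the WT libraries ranged over more than 3 on the log2 scale and WT 4 was above every STAT3cKO library. The change was 1.30 (95% interval 0.06 to 2.55, SE 0.59, unadjusted p = 0.0413, limma adjusted p = 0.436). It was 2.57 (limma adjusted p = 0.109) among the 4 deeper libraries, which hold neither WT 4 nor WT 5, and 0.46 (limma adjusted p = 0.866) among the 6 shallower ones.

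WT 4 thus had the lowest Cers4 and the highest Cers3 of all libraries. Whether the pair moved unequally was tested on the difference between Cers4 and Cers3 within a library, which averaged 4.01 ± 0.87 in STAT3cKO and 2.57 ± 2.02 in WT (SD, n = 5 each). This difference of 1.44 had an exact 2-sided permutation p of 0.183 (0.548 adjusted over the 3 pairs), so a larger change of Cers4 than of Cers3 was not shown. It was 0.66 without WT 4 and 2.01 without WT 1 (exact permutation p = 0.357 and 0.0476, or 0.536 and 0.143 adjusted). The values spanned 2.78 to 5.18 in STAT3cKO and −0.56 to 4.83 in WT.

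Promoter sequences, shown because Cers4 rose and its relative Cers3 did not pass the test, run from 250 bases before to 50 bases after the start of transcription, 5′ to 3′ (RefSeq, GRCm38.p6). Capitals mark a GC box, GGGCGG, searched on both strands together with the STAT motif TTCNNNGAA and the AP-1 motif TGANTCA. The Cers4 stretch is chr8:4493155-4493454 and the Cers3 stretch is chr7:66743254-66743553, both on the plus strand.
Cers4: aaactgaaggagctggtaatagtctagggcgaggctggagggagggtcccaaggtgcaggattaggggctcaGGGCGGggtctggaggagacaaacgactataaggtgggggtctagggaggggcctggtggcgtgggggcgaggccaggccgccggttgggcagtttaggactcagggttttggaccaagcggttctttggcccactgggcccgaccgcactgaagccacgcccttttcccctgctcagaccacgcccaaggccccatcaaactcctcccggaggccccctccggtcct
Cers3: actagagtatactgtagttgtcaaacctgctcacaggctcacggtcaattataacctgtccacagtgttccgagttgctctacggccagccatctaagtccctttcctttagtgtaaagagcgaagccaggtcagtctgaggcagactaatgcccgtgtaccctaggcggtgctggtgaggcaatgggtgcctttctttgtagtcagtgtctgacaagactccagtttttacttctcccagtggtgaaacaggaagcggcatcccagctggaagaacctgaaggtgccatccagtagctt
Cers4 held 1 GC box, and Cers3 held no match to any of the 3 motifs. The table matched 8 of the 9 enzymes, all but Fa2h. A STAT match was found in 0 of the 8, against 8.30% of 32851 promoters of the same length, and an AP-1 match in 0, against 7.81%. A GC box was found in 6 of the 8, against 35.7%. These are letters in a window of 300 bases and say nothing of binding.

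Fa2h (chromosome 8, 111345135 to 111393824, minus strand) encodes the fatty acid 2-hydroxylase, whose loss in mice alters sebum and the hair cycle. Its values were 14.06, 14.42, 13.34, 15.11 and 13.91 in STAT3cKO and 10.69, 10.84, 10.68, 8.16 and 11.21 in WT. The gap between the groups was 2.13, and WT 4 lay well below the other WT libraries. On the linear scale its share was 1934 ± 910 ppm in STAT3cKO and 140 ± 70.7 ppm in WT (SD, n = 5 each). By number of 3′ reads Fa2h ranked between 13 and 124 among all entries in STAT3cKO and between 757 and 5959 in WT.

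The rise of Fa2h was 3.85 (95% interval 2.71 to 4.99, SE 0.53, limma adjusted p = 0.00260), or 14.4-fold with an interval of 6.56 to 31.8. The calls of Fa2h and Cers4 held with any 1 library left out (highest limma adjusted p = 0.0124 and 0.00433), and without both STAT3cKO 2 and WT 3 the changes were 3.88 (limma adjusted p = 0.0242) and 2.76 (limma adjusted p = 0.0119). Among the 4 deeper libraries they were 3.74 and 2.88 (limma adjusted p = 0.00182 and 0.00445). Among the 6 shallower libraries they were 3.93 and 2.65 (limma adjusted p = 0.403 and 0.0496), so that the call of Fa2h was lost there at a change of similar size.

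The difference between Fa2h and Cers4 varied little within the STAT3cKO group. Fa2h minus Cers4 was 0.58, 0.98, 0.89, 0.97 and 0.41 in STAT3cKO 1 to 5 and −0.56, 0.22, −0.09, −1.14 and −0.14 in WT 1 to 5. The STAT3cKO differences were all positive and above every WT one. Among the 7165 other tested genes with a read in all 10 libraries, the profile nearest to that of Fa2h was that of Cers4, with a root mean square difference of 0.67 on the log2 scale after each gene's mean was subtracted; the median over these genes was 2.30. The next were Rarres1, a gene induced by retinoids, at 0.79, and Hacl1, a peroxisomal lyase that cleaves 2-hydroxy fatty acids, at 0.80.

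For Cers4 the nearest profiles were those of Msmo1, an enzyme of cholesterol synthesis, at 0.49, Rarres1 at 0.53 and Hacl1 at 0.56, with Fa2h in place 13 at 0.67. Msmo1 rose by 2.46 (limma adjusted p = 0.000294), Hacl1 by 2.81 (limma adjusted p = 0.00869) and Rarres1 by 2.67 (limma adjusted p = 0.0454). The likeness takes in the difference between the groups, and the 10 libraries share depth and tissue makeup. Under 27 other settings the call held in 26 for Msmo1, in 22 for Hacl1 and in 11 for Rarres1, which kept it in 2 of the 10 fits without 1 library. Relative to the suprabasal keratinocyte markers all 3 lost it, at changes of 1.09, 1.44 and 1.31 (limma adjusted p = 0.118, 0.141 and 0.0899). Hacl1 also lost it relative to the basal markers (limma adjusted p = 0.137), with neither trend nor robust estimation (0.0697), with the replicate number as a block (0.0537) and among the 6 shallower libraries (0.433).

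**Figure D2:**
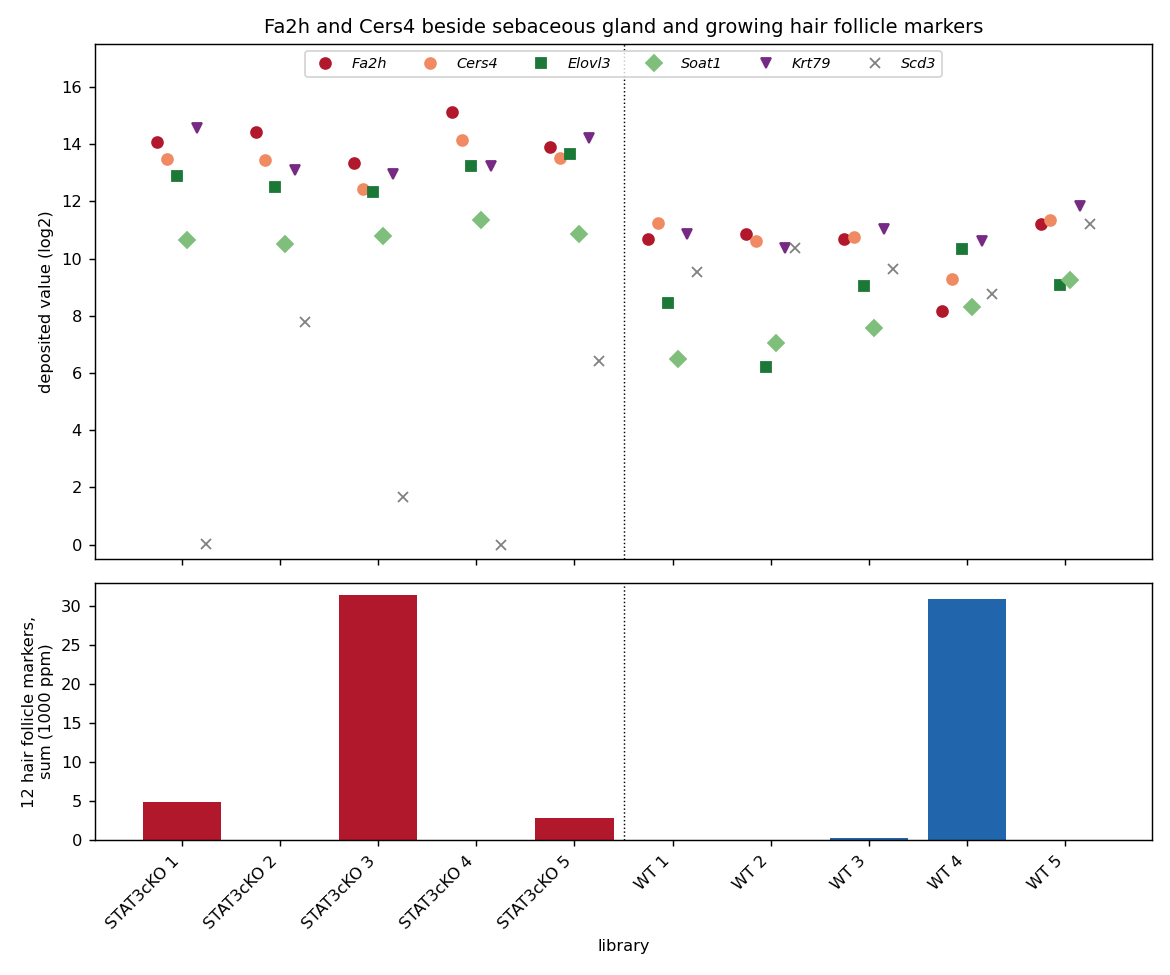
Upper panel, deposited values (log2) of Fa2h, Cers4 and 4 sebaceous gland markers in each library, STAT3cKO left of WT; lower panel, the summed level of 12 markers of the growing hair follicle as a share of the library. Fa2h, Cers4, Elovl3, Soat1 and Krt79 lie higher in every STAT3cKO library than in any WT library, Scd3 lies lower, and hair follicle markers are highest in STAT3cKO 3 and WT 4.

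Whole skin holds sebaceous glands, hair follicles, fat and muscle beside epidermis, and markers of each were measured. Of 8 tested sebaceous gland markers 3 rose, 0 fell and 5 did not pass, and 4 had a change above 0 and 4 below, with a median of 0.02. Elovl3, an elongase of sebaceous fatty acids, was at 12.93 ± 0.54 in STAT3cKO and 8.62 ± 1.52 in WT (SD, n = 5 each) and rose by 4.31 (limma adjusted p = 0.00355), although its exons overlap those of Pitx3 on the other strand. Soat1, which esterifies cholesterol, rose by 3.10 (limma adjusted p = 0.00167), and Krt79, a keratin of the sebaceous duct and upper follicle, by 2.67 (limma adjusted p = 0.000460). With the mean of the adipocyte markers as a covariate all 3 lost the call, at 3.25, 2.35 and 2.30 (limma adjusted p = 0.118, 0.118 and 0.0706). Soat1 also lost it among the 6 shallower libraries (2.28, limma adjusted p = 0.214), and Krt79 relative to the suprabasal markers (1.30, limma adjusted p = 0.0624) and with neither trend nor robust estimation (limma adjusted p = 0.0505).

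The 5 sebaceous gland markers that did not pass had changes of −6.71 to 0.04. Scd3, a desaturase restricted largely to sebaceous glands, was at 0.04, 7.80, 1.66, 0.00 and 6.42 in STAT3cKO and 9.52, 10.36, 9.62, 8.77 and 11.20 in WT. It was lower in each STAT3cKO library than in any WT library, with a change of −6.71 that missed the threshold (limma adjusted p = 0.0520). Its size rests on 2 STAT3cKO libraries without a read: with pseudocounts of 16 and 64 it was −4.57 and −3.31 and passed (limma adjusted p = 0.00518 and 0.000677), and with the adipocyte covariate it was −3.72 (limma adjusted p = 0.437). It passed in 10 of 26 other settings. Mc5r had no read in any library. The 9 markers summed to 2067 to 4293 ppm in STAT3cKO and 889 to 1514 ppm in WT, a sum weighted to the markers with most reads. Their mean on the log2 scale overlapped, at 7.02 to 9.21 in STAT3cKO and 7.73 to 8.80 in WT. Scaled to the mean of the 8 tested markers, Fa2h was higher in STAT3cKO by 4.10 and Cers4 by 3.00 (limma adjusted p = 2.21e-09 and 0.000148). Scd3, at a change of −6.71, lowers that mean in STAT3cKO, and the median change of all genes moved from −0.16 to 0.09. A scale without Scd3 was not tried. The same mean was subtracted from every gene, so its noise is shared and these p-values overstate what 10 libraries show. For Fa2h the SE grew from 0.53 to 0.58, yet the unadjusted limma p fell from 6.8e-06 to 2.3e-12. The other marker scales share this limit. The part of these markers in the levels of Fa2h and Cers4 was not tested.

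Of 10 tested suprabasal keratinocyte markers 10 had a change above 0, with a median of 1.18, and 0 passed the test. Relative to their mean in each library, which moved the median change of all genes to −1.53, Fa2h was higher in STAT3cKO by 2.49 (limma adjusted p = 0.00548), while Cers4 was higher by 1.38 and lost its call (limma adjusted p = 0.0674). On the same scale the other 7 enzymes had changes of −2.23 to −0.06, all below 0 and none called. Relative to the basal keratinocyte markers, of which 7 of 7 had a change above 0 and 0 passed, with a summed level of 1858 to 5670 ppm in STAT3cKO and 770 to 2859 ppm in WT, the changes were 3.41 for Fa2h and 2.30 for Cers4 (limma adjusted p = 0.00560 and 0.0238).

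Markers of the growing hair follicle differed between libraries of the same group, and 0 of the 6 tested passed, with a median change of 2.02. Of these 12 markers 11 had no read in STAT3cKO 2 and 9 had none in STAT3cKO 4, where Fa2h was at 14.42 and 15.11, its highest values of all. WT 1 and WT 2 had 10 and 9 markers without a read, and Fa2h there was lower than in any STAT3cKO library. Their sum was 31395 ppm in STAT3cKO 3 and 30894 ppm in WT 4, the libraries with the lowest Fa2h and Cers4 of their groups. With the mean of the tested hair follicle markers as a covariate, a setting chosen after the data were seen, Fa2h was higher in STAT3cKO by 4.04 and Cers4 by 2.87. What the hair follicle markers contribute to the levels of both enzymes was not tested.

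Adipocyte markers were lower in STAT3cKO in 8 of 8 cases, with a median change of −2.35, 0 of them called, and a summed level of 4492 to 25689 ppm in STAT3cKO and 11037 to 61871 ppm in WT. With their mean as a covariate, also chosen after the data were seen, Fa2h was higher in STAT3cKO by 5.25 (limma adjusted p = 0.00394) and Cers4 by 3.65 (limma adjusted p = 0.00479). Skeletal muscle markers had a change below 0 in 7 of 7 cases (495 to 14274 ppm in STAT3cKO, 1565 to 25607 in WT) and macrophage markers in 6 of 6 (237 to 1347 ppm in STAT3cKO, 543 to 1468 in WT), while fibroblast markers did in 3 of 6 (2215 to 13836 ppm in STAT3cKO, 5477 to 8389 in WT); 0 of these were called. Their part in the levels of the enzymes was not tested.

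Degs2 (chromosome 12, 108678711 to 108702315, minus strand), the desaturase and hydroxylase that makes phytoceramides, had values of 9.35, 7.55, 5.60, 4.89 and 9.13 in STAT3cKO and 3.96, 6.24, 8.78, 7.67 and 6.82 in WT. The groups overlapped over most of their range. The change was 0.61 (95% interval −2.03 to 3.26, SE 1.26, limma adjusted p = 0.878).

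The values of Degs2 coincide in part with those of a neighbour. Evl, an actin regulator on the plus strand (108554720 to 108688516), ends inside Degs2, and 278 bases at its 3′ end (108688239 to 108688516) are annotated as exons of both genes. The values of Degs2 and Evl were identical in STAT3cKO 3, WT 1 and WT 2, and no other entry matched Degs2 in more than 2 libraries. Estimated reads of Degs2 beyond those of Evl were 314, 2, 0, 1 and 263 in STAT3cKO 1 to 5 and 0, 0, 130, 18 and 18 in WT 1 to 5. The level of Degs2 on its own therefore cannot be told apart from that of Evl in the libraries where the values coincide. Estimated Evl reads were 132 against 134 for Degs2 in STAT3cKO 2 and 38 against 39 in STAT3cKO 4. They were 153 against 171 in WT 4, 56 against 74 in WT 5 and 720 against 983 in STAT3cKO 5. STAT3cKO 1 and WT 3 had 220 against 534 and 195 against 325. How much of each value belongs to Degs2 is thus not known in any library, and its change between the groups has this limit. So does the difference from its relative Degs1, which averaged −3.72 ± 2.03 in STAT3cKO and −3.85 ± 2.15 in WT (SD, n = 5 each). Its exact 2-sided permutation p was 0.952, also 0.952 adjusted over the 3 pairs.

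**Figure D3:**
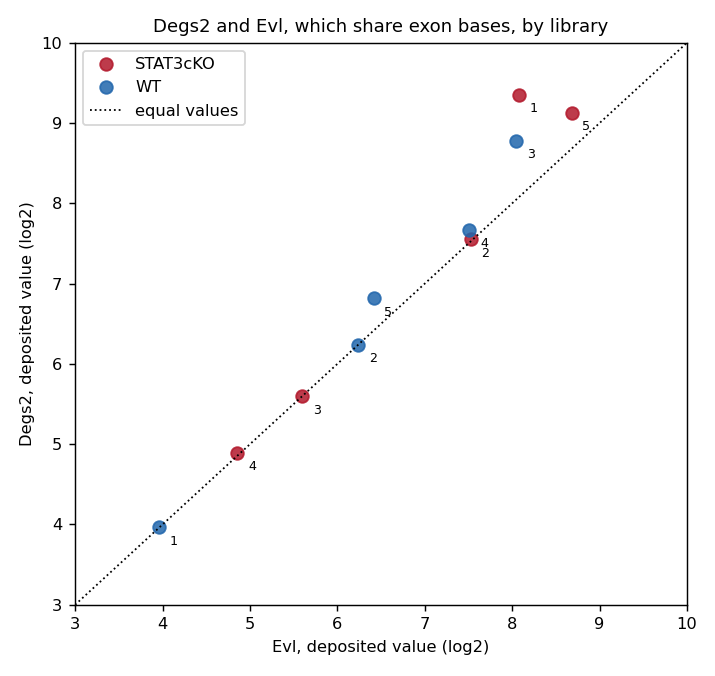
Deposited value (log2) of Degs2 against that of Evl in each library, STAT3cKO in red and WT in blue, numbered by replicate, with a dotted line of equal values. On the line lie 3 libraries, equal to the last decimal deposited, the other 7 lie above it, STAT3cKO 1 and WT 3 farthest, and none lies below.

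Downstream of ceramide, Ugcg (chromosome 4, 59189257 to 59222833, plus strand) adds glucose to ceramide, the form in which barrier lipids are packed for secretion. Its values were 9.94, 10.30, 10.59, 9.53 and 10.99 in STAT3cKO and 8.60, 9.34, 9.51, 9.26 and 9.91 in WT. The STAT3cKO libraries lay above all WT libraries except STAT3cKO 4, which lay within their range. The change was 0.95 (95% interval 0.17 to 1.72, SE 0.37, unadjusted p = 0.0194, limma adjusted p = 0.332).

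Smpd1 (chromosome 7, 105554360 to 105558389, plus strand) encodes acid sphingomyelinase, which frees ceramide from sphingomyelin between the cornified cells. Its values were 11.63, 11.15, 12.06, 10.88 and 11.27 in STAT3cKO and 10.59, 10.13, 11.45, 11.19 and 11.11 in WT, and the groups overlapped. The change was 0.51 (95% interval −0.17 to 1.18, SE 0.32, limma adjusted p = 0.581), an interval of 0.890-fold to 2.27-fold, and without WT 2 it was 0.31.

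**Figure D4:**
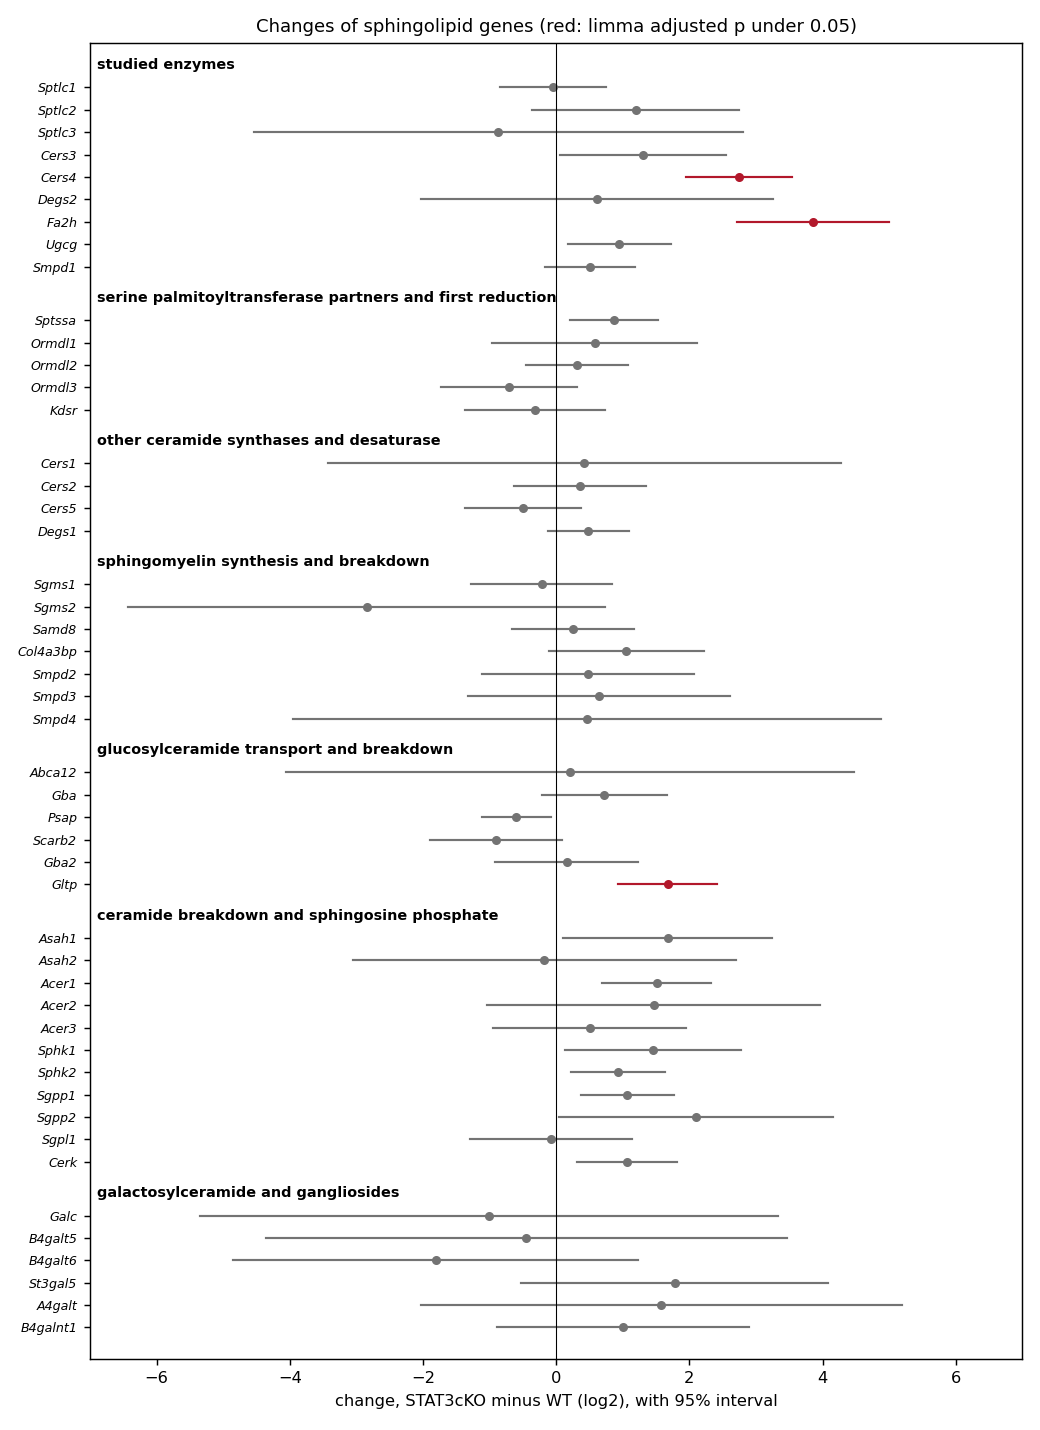
Change from STAT3cKO minus WT (log2, horizontal axis) with its 95% interval for the 9 studied enzymes and 39 other tested genes of sphingolipid metabolism, by group. Cers4, Fa2h and Gltp, in red, have a limma adjusted p under 0.05, and the other genes, in grey, do not.

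Across 6 further lists of sphingolipid genes, 39 of 43 genes were tested, of which 1 rose, 0 fell and 38 did not pass. Over all 11536 genes tested 0.529% rose and 0.459% fell. A change above 0 was seen in 27 of the 39 (69.2%, against 43.8% of all genes tested), with a median of 0.48. These lists were chosen with earlier results of these data known, so the shares are not independent evidence. The riser was Gltp (chromosome 5, 114669398 to 114690984, minus strand), the glycolipid transfer protein that carries glucosylceramide between membranes. It had values of 11.99, 11.71, 11.82, 11.04 and 11.34 in STAT3cKO and 9.75, 9.22, 9.36, 10.99 and 10.20 in WT, so that WT 4 came close to the lowest STAT3cKO library.

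Gltp rose by 1.67 (SE 0.35, limma adjusted p = 0.0258). Leaving out 1 library at a time kept the call in 5 of 10 fits. It was lost without STAT3cKO 1, STAT3cKO 3, WT 1, WT 2 or WT 3 (limma adjusted p up to 0.0892), and in 14 of 27 other settings in all. Among them were the replicate number as a block (limma adjusted p = 0.0989), the basal and sebaceous markers as scale (0.316 and 0.122), neither trend nor robust estimation (0.228), and the deeper and shallower libraries (0.0753 and 0.342). The change was 0.31 relative to the suprabasal markers (limma adjusted p = 0.690) and 0.90 with the adipocyte covariate (limma adjusted p = 0.374). Of the other 5 tested genes of its list, on transport and breakdown of glucosylceramide, 3 had a change above 0.

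Around serine palmitoyltransferase, 0 of 5 tested partners passed and the median change was 0.31. Sptssa, a small subunit that raises the enzyme's activity, was at 12.17 ± 0.39 in STAT3cKO and 11.30 ± 0.60 in WT (SD, n = 5 each, change 0.87, limma adjusted p = 0.266). Of the 4 other tested ceramide synthases and desaturases 0 passed, with a median of 0.39, and Degs1, the general dihydroceramide desaturase, was at 11.02 ± 0.23 in STAT3cKO and 10.54 ± 0.40 in WT (change 0.48, limma adjusted p = 0.561).

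Of 7 tested genes of sphingomyelin metabolism 0 passed, with a median of 0.46. Col4a3bp, the ceramide transporter that feeds sphingomyelin synthesis, was at 9.55 ± 0.94 in STAT3cKO and 8.50 ± 1.04 in WT (change 1.05, limma adjusted p = 0.513, or 0.64 without WT 3). An antisense gene, Gm48133, overlaps its exons. Of 11 genes of ceramide breakdown and sphingosine phosphate 0 passed, although 9 had a change above 0 and the median was 1.07. Acer1, the alkaline ceramidase of epidermis and sebaceous glands, was at 11.48 ± 0.59 in STAT3cKO and 9.98 ± 0.78 in WT (change 1.51, SE 0.39, limma adjusted p = 0.0732). It passed in 6 of 27 other settings, with limma adjusted p from 0.00504 with array weights to 0.861 relative to the suprabasal markers, where the change was 0.14. In the 4 deeper libraries it was 2.48 (limma adjusted p = 0.0301), and in the 6 shallower libraries 0.86 (limma adjusted p = 0.815). An antisense gene, AC073683.1, overlaps its exons.

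Of 6 tested genes of galactosylceramide and gangliosides 0 passed, with a median of 0.28. St3gal5, which makes the simplest ganglioside, was at 9.05, 9.36, 8.84, 8.16 and 8.50 in STAT3cKO and 8.60, 9.05, 1.91, 7.30 and 8.15 in WT, with WT 3 far below the rest (change 1.78, limma adjusted p = 0.567, or 0.51 without WT 3).

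**Figure D5:**
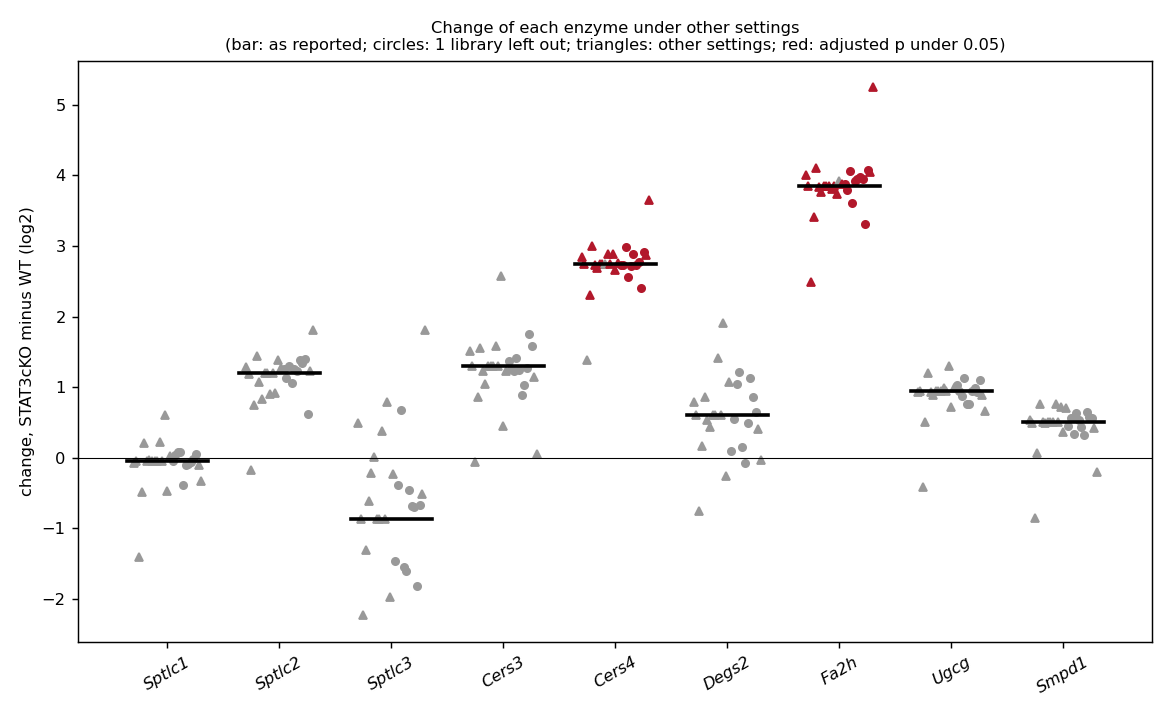
Change of each enzyme, STAT3cKO minus WT (log2, vertical axis), as reported (black bar) and under other settings: circles leave out 1 library, triangles are other scalings, filters, models or subsets of libraries. Red points have a limma adjusted p under 0.05. Cers4 and Fa2h stay above 0 in all settings, whereas the other enzymes have grey points only.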

How the data were processed

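Skin RNA was isolated in Trizol and made into 3′ end libraries (Lexogen QuantSeq), per the labels' protocols. Bowtie2, bedtools and the build mm10 are named, per the submitters' processing notes, without versions, annotation, use of strand or scaling. The authors deposited 1 table per library, and its values behave as log2 of scaled reads plus about 1, a unit read from the values. Undoing the log gave sums of 9690000 to 11400000. Low values lay on multiples of the worth of 1 read: 90.0 to 100% of values up to 20 reads were whole within 0.15, which gave the estimated depths. Values under 0.5 of a read were taken as no read. Depth describes counting error only, since no molecular identifiers are named.

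The design had provided for raw counts too; because the values are logged, limma 3.58.1 (R 4.3.3, mean trend, robust) was fitted to all 11536 genes with a value of at least 5 in at least 5 libraries, with Benjamini-Hochberg adjustment over all of them. Pairs of enzymes were compared by exact permutation over 252 arrangements (smallest p 0.00794). The members and gene lists were chosen with earlier results of these data known. Named genes are the 9 members, called genes of each further list or else the gene with its lowest p, and the 3 nearest profiles of each called member; Elovl3, Soat1, Krt79 and Scd3 were singled out after their values were seen. Libraries were grouped by title. Positions are from GENCODE M21 and promoters from RefSeq. The alternatives were other scalings, pseudocounts, filters, models and subsets of libraries. The fit was also run on simulated data with a normal spread drawn separately for each gene. Such data hold no tissue makeup shared between genes, so they do not check the fit under that kind of spread. Figures were drawn with matplotlib 3.10.9.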

Additional observations from a re-analysis of the deposited data

Results flagged for a closer look

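In 4 of the 18 sets of 5 values (9 enzymes, each in STAT3cKO and in WT) 1 library lay apart, with a gap to its nearest neighbour that was large against the range of the set, past Dixon's 95% value; chance gives about 1 in 20. Sptlc1 was at 11.263 in STAT3cKO 5, against 9.891 in the next library. Sptlc2 was at 4.964 in WT 5, against 7.416. Sptlc3 was at 3.23 in WT 4, against 7.707. Fa2h was at 8.155 in WT 4, against 10.68, and without that library its rise was 3.31 (limma adjusted p = 7.83e-06).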

How the results depend on the processing

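Of 27 other settings, 2 of them chosen after the data were seen, the call of Fa2h held in 26 (at changes of 2.49 to 5.25) and that of Cers4 in 25 (at 2.30 to 3.65). The number of enzymes called was 1 in place of 2 relative to the suprabasal markers and with neither trend nor robust estimation (Fa2h in both, Cers4 at adjusted p = 0.0674 and 0.0654), and 1 in the 6 shallower libraries (Cers4). Over all genes, 114 were called as reported, 61 to 207 without 1 library (61 without STAT3cKO 1, 62 without WT 1 or WT 2, 72 without STAT3cKO 5, 207 without WT 4), 181 with quantile normalization, 1955 relative to the suprabasal markers, 63 relative to the basal markers, 175 and 236 with pseudocounts of 16 and 64, 44 with neither trend nor robust estimation, 375 with array weights, 174 in the 4 deeper and 16 in the 6 shallower libraries, and 30 with the adipocyte covariate. Calls higher and lower in STAT3cKO numbered 61 and 53 as reported, and 13 and 1942 relative to the suprabasal markers, where the median change of all genes was −1.53 (−0.61 relative to the basal markers).

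With the replicate number as a block 66 genes were called, and Fa2h and Cers4 kept their calls (adjusted p = 0.0125 and 0.00417). Same-numbered libraries did not deviate together (r −0.15 to 0.02), none matched its own number best, and the samples share only a number.

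The sign turned for changes that did not pass the test. Relative to the suprabasal markers it was −0.17 for Sptlc2, −0.063 for Cers3, −0.75 for Degs2, −0.42 for Ugcg, −0.86 for Smpd1, −0.50 for Sptssa, −0.88 for Degs1 and −0.31 for Col4a3bp. Sptlc1 was at 0.21 relative to the sebaceous markers, 0.22 with array weights, 0.60 in the deeper libraries, 0.029 without both STAT3cKO 2 and WT 3, and −0.38 to 0.086 without 1 library. Sptlc3 was at 0.50 with quantile normalization, 0.0079 with a pseudocount of 64, 0.38 with array weights, 0.79 in the deeper libraries, 1.80 with the adipocyte covariate, and −1.82 to 0.67 without 1 library. Degs2 was at −0.25 in the shallower libraries, −0.026 with the adipocyte covariate and −0.072 to 1.21 without 1 library, and Smpd1 at −0.20 with that covariate. St3gal5 was at −0.50 in the deeper libraries. The difference of Degs2 minus Degs1 between the groups was −0.030 with a pseudocount of 64, −0.76 in the shallower libraries, and −0.67 to 0.76 without 1 library. A filter on a mean of at least 8 gave no value for Sptlc2, Sptlc3, Degs2, St3gal5 and Scd3. The causes were not tested.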
